A study of Mus musculus with 8 samples.

Results

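Heavy polysomal RNA of an eIF4E knock-in fibroblast line was compared with that of a wild-type line on 4 of the 8 Illumina mouse bead arrays of the series. The 4 arrays are all those whose titles name polysomal RNA, 2 from EIF4E-KI cells (KI) and 2 from WT cells, and the comparison covers the 23978 of 25697 probes that carry a gene symbol. In the knock-in mice eIF4E lacks its MNK phosphorylation site. The cells of both groups were mouse embryo fibroblasts (MEFs) taken at day 14.5 of pregnancy, immortalized by passage and grown in DMEM with 10% fetal bovine serum, and 250 ng of RNA was labelled with biotin for each array. Polysomal fractions in which an mRNA carried more than 3 ribosomes were pooled as heavy polysomal RNA. Each genotype is 1 line, sampled in 2 independent experiments, so the replicates measure spread between experiments and genotype cannot be told apart from line. The other 4 arrays hold total cytoplasmic RNA of the same lines.

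eIF4E binds the cap at the 5′ end of an mRNA and brings in the scaffold eIF4G and the helicase eIF4A, after which the small ribosomal subunit joins. The MNK kinases phosphorylate eIF4E at a single serine while it is held on eIF4G. An mRNA that initiates often carries many ribosomes and sediments with heavy polysomes, so the amount of an mRNA in that fraction depends both on its level in the cell and on the share of it that is translated.

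The signal is on a log2 scale as far as its range shows, and a difference below is KI minus WT in log2 units, with its limma standard error and 2 arrays per group. Of the named probes, 12094 had a mean over the 8 arrays above the median of all probe means, 7.73, and 11884 did not. Each gene was read from its brightest passing probe, which gave 8832 tested genes. Values near 7.73 lie at the bottom of the signal range, and a difference against such a value is understated. Across the tested genes the 2 replicates differed by a median of 0.11 in KI and 0.10 in WT polysomal RNA, and by 0.20 and 0.19 in KI and WT total RNA. WT total replicate 2 differed from its partner for many genes. The chemokine gene Ccl2 read 8.21 there and 11.63 in WT total replicate 1, against 8.66 and 8.59 in KI total RNA, while Hoxb7 read 7.64 and 7.65 in KI against 10.03 and 9.65 in WT total RNA. That array is no part of the polysomal contrast, but it enters the spread that all groups share.

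Of the 8832 tested genes, 5 passed at an adjusted p below 0.05 (limma, Benjamini-Hochberg adjustment), which is 0.0566% of them. In KI polysomal RNA 2 genes rose (0.0226%) and 3 fell (0.034%). Of the 5, Hoxb7, Hoxb4 and Thbd in KI and Xlr4a in WT had means below 7.73, while Gpx7 was above it in both lines. Unadjusted p was below 0.05 for 1013 genes (11.5%), of which 537 were higher (6.08%) and 476 lower (5.39%) in KI. The KI arrays did not overlap the WT arrays for 4640 genes (52.5%), with KI above WT for 2081 (23.6%) and below it for 2559 (29%). Leaving out either WT total array takes the spread between the WT total arrays out of the shared estimate and leaves each polysomal difference unchanged.

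The promoters of the passing genes are shown for the 3 that the RefSeq table held, Gpx7, Hoxb4 and Xlr4a, because these genes passed the test. Each run covers 150 bases before to 50 bases after the start of the gene on GRCm38.p6, and capitals mark CG, the dinucleotide that DNA methylation targets.
Gpx7, chr4:108406664-108406863, minus strand: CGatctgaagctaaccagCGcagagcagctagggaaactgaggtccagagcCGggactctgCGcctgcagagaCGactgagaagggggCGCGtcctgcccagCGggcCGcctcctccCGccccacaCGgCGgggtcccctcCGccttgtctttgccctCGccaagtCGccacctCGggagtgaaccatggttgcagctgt
Hoxb4, chr11:96318117-96318316, plus strand: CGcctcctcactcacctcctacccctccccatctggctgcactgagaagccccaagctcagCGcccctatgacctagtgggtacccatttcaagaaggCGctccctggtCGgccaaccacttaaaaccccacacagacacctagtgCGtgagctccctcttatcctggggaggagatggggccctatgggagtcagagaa
Xlr4a, chrX:73082458-73082657, minus strand: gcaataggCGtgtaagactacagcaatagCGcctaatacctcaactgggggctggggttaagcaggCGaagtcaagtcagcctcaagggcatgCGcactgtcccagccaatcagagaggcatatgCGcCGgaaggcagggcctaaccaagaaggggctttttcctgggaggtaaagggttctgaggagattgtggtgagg
Over the whole window of 300 bases, Gpx7 held 19 CG, a number reached by 28.1% of all 32851 promoters in the table. Hoxb4 held 14, reached by 36.3%, and Xlr4a 8, reached by 48.6%. Methylation was not analysed here.

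Hoxb7 and Hoxb4 encode homeodomain transcription factors of the Hoxb cluster on chromosome 11, which specify position along the body axis. Hoxb7 read 7.62 and 7.63 in KI polysomal RNA and 10.24 and 10.16 in WT. It fell by 2.58 ± 0.14 (adjusted p = 0.00826). Hoxb4 read 7.72 and 7.67 in KI and 10.16 and 9.69 in WT, and fell by 2.23 ± 0.17 (adjusted p = 0.0304). Both KI arrays were at the bottom of the range for these genes and both WT arrays well above it. Thbd encodes thrombomodulin, a surface receptor that turns thrombin into an activator of protein C. It read 7.62 and 7.66 in KI and 9.76 and 10.05 in WT, and fell by 2.27 ± 0.12 (adjusted p = 0.00826).

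The passing genes that rose were Gpx7 and Xlr4a. Gpx7 encodes a peroxidase of the endoplasmic reticulum that takes part in oxidative protein folding. It read 10.43 and 10.11 in KI and 8.06 and 7.96 in WT, a rise of 2.26 ± 0.18 (adjusted p = 0.0304). Xlr4a belongs to an X-linked gene family with near-identical copies, so its probe may also bind other members, which was not tested. The probes of Xlr4b, Xlr4c and Xlr5c lay between 7.61 and 7.71 on the polysomal arrays of both lines. Xlr4a read 9.89 and 9.83 in KI against 7.62 and 7.64 in WT, a rise of 2.23 ± 0.14 (adjusted p = 0.0151). In both genes the lowest KI array lay over 2 log2 units above the highest WT array. Leaving out either KI polysomal array, or WT polysomal replicate 2, ended all 5 calls (limma; 0 passed, with 623, 828 and 659 genes at an unadjusted p below 0.05 without KI replicate 1, KI replicate 2 and WT replicate 2). Without WT polysomal replicate 1, 2 genes passed, 1 of them among the 5.

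**Figure D1:**
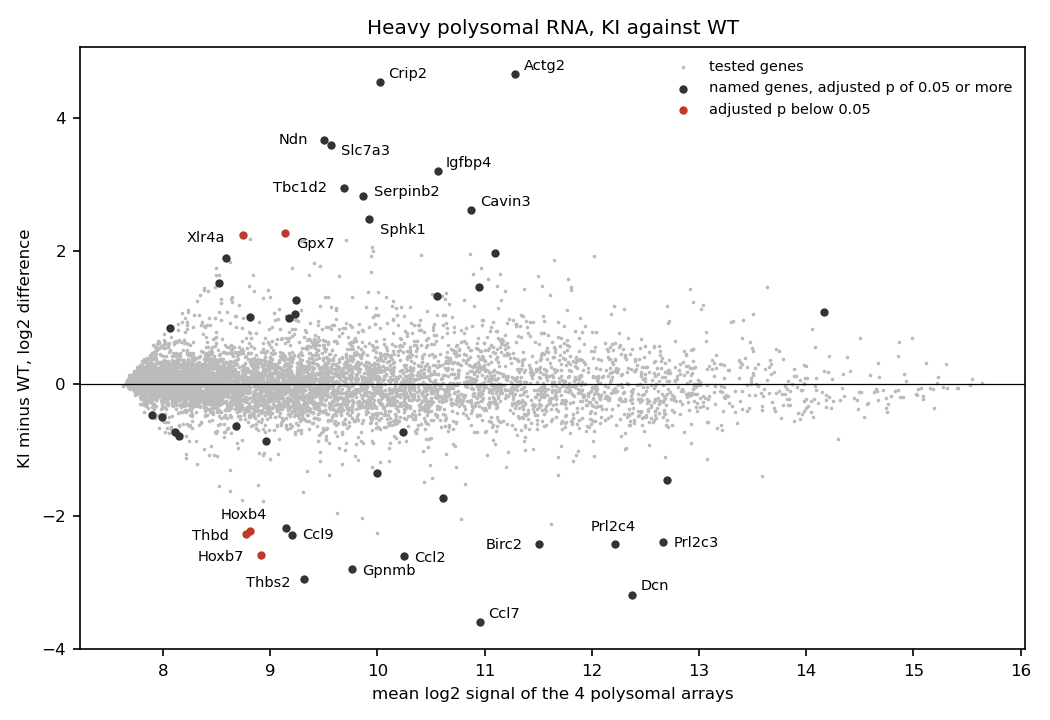
Mean log2 signal of the 4 polysomal arrays (x axis) against the KI minus WT log2 difference in heavy polysomal RNA (y axis) for the 8832 tested genes. Red points are the 5 genes with an adjusted p below 0.05, black points are named genes that did not pass, and the largest differences, such as 4.66 for Actg2 and 4.55 for Crip2, are among the black points.

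Beyond the passing genes, 7 genes shared an adjusted p of 0.0529. Wnt5a, a secreted ligand of non-canonical Wnt signalling, read 8.48 and 8.49 in KI and 7.66 and 7.64 in WT, a difference of 0.84 ± 0.08, and its other probe read 0.50. Flt1, the VEGF receptor VEGFR1, read 9.83 and 9.92 against 8.55 and 8.68, a difference of 1.26 ± 0.12. Palld, the actin-bundling scaffold palladin, read 11.03 and 11.40 against 9.91 and 9.88, a difference of 1.32 ± 0.13. In each of them both KI arrays lay above both WT arrays, but the choice of these genes required arrays that did not overlap. That held for 52.5% of all tested genes. Sspn encodes sarcospan of the dystrophin complex and differed by 0.99 ± 0.10. Eif2s3y, a Y-linked gene that encodes part of eIF2, gave 9.47 and 9.60 in KI and 7.64 on both WT arrays, a difference of 1.89 ± 0.18. Frk, a non-receptor tyrosine kinase, read 8.47 and 8.60 in KI and 9.40 and 9.39 in WT, a difference of -0.86 ± 0.08. Arhgap22, a GTPase-activating protein for Rac, read 9.83 and 9.67 against 11.41 and 11.55, a difference of -1.73 ± 0.17.

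The next genes in KI's favour had adjusted p between 0.0609 and 0.0682. Serpinf1, which encodes the secreted anti-angiogenic factor PEDF, was among the brightest of them. It read 14.77 and 14.63 in KI and 13.62 and 13.63 in WT, a difference of 1.08 ± 0.12. Ndn encodes necdin, an imprinted growth suppressor on chromosome 7. It read 11.81 and 10.86 in KI and 7.67 and 7.66 in WT, a difference of 3.67 ± 0.40. Slc7a3, a transporter of cationic amino acids, read 11.76 and 10.97 against 7.76 and 7.77, a difference of 3.60 ± 0.42. Its other probe, at 7.78 on average, lay near the bottom of the range and read 0.03. Nppb, the natriuretic peptide BNP, differed by 1.52 ± 0.17, and Rgs17, a brake on G protein signalling, by 1.05 ± 0.12. Cavin4, a caveolar coat protein of muscle, differed by 1.01 ± 0.11.

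Lower values in KI had adjusted p between 0.0747 and 0.113. The probe of Eif4e itself, whose place relative to the altered codon was not looked up and which is no check of genotype, gave 7.76 on both KI arrays and 8.66 and 8.44 in WT, a difference of -0.79 ± 0.10 (adjusted p = 0.0747). In total RNA the same probe lay between 7.67 and 7.82 in all 4 arrays, so its polysomal value rests on the WT polysomal arrays being above the bottom of the range. Thbs2, the matricellular protein thrombospondin 2, read 7.78 and 7.91 in KI against 10.13 and 11.45 in WT, a difference of -2.94 ± 0.40. Scara3, a scavenger receptor family member, differed by -2.18 ± 0.31. Znrd2 differed by -1.46 ± 0.20 on its brightest probe and by -1.47 on the other. Cldn1, a tight junction claudin, differed by -0.74 ± 0.10, and Pdk4, a kinase that switches off pyruvate dehydrogenase, by -0.50 ± 0.07, and both genes were close to 7.73 in KI. Hoxa5, Fam89b, Ttc1 and Pcdh20 differed by -0.64, -1.34, -0.73 and -0.48.

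**Figure D2:**
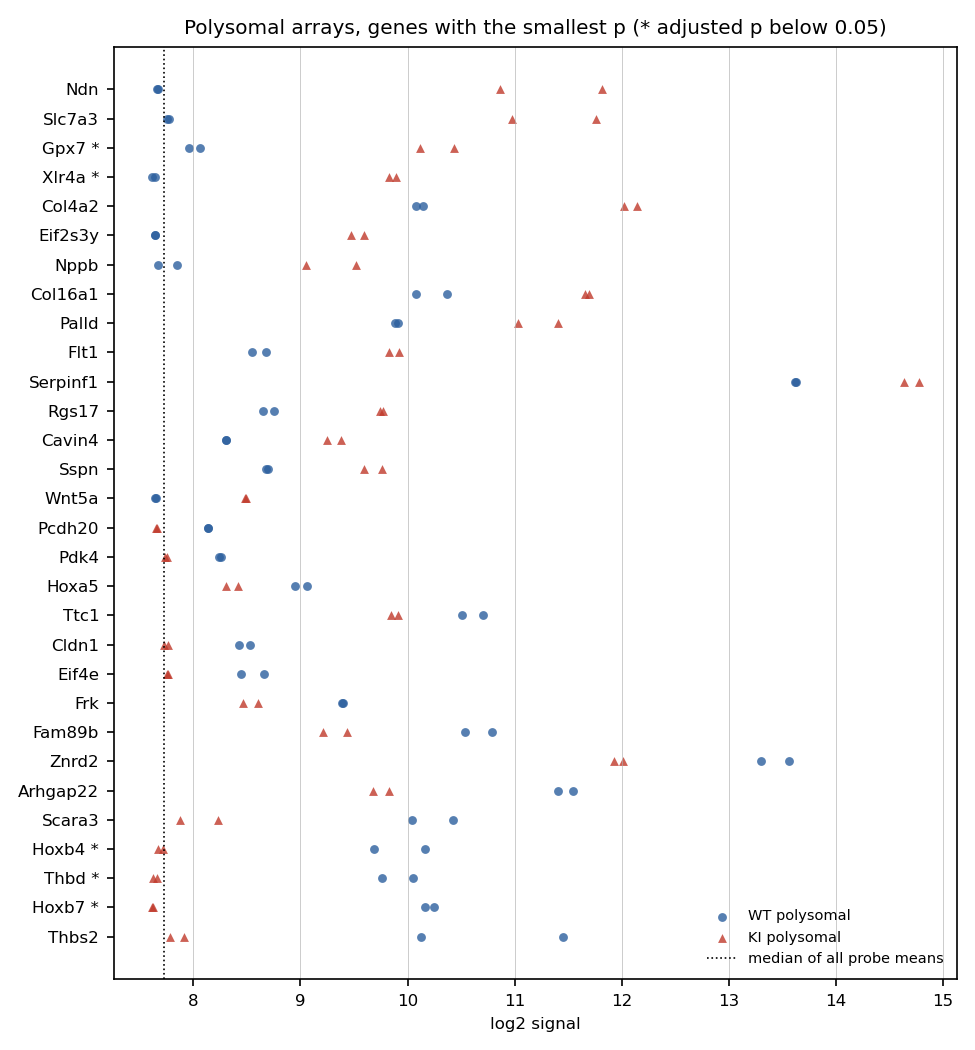
Log2 signal (x axis) on the 2 KI (red triangles) and 2 WT (blue circles) polysomal arrays for the 30 genes with the smallest p, 15 higher and 15 lower in KI. The dotted line is the median of all probe means, 7.73, and stars mark the 5 genes with an adjusted p below 0.05. Hoxb7, Thbd and Hoxb4 lie at or just below the dotted line in KI, and Xlr4a, Eif2s3y and Ndn in WT.

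The largest differences did not coincide with the smallest p. Actg2, the gamma actin of enteric smooth muscle, read 13.91 and 13.33 in KI and 9.28 and 8.62 in WT, a difference of 4.66 ± 0.69 (adjusted p = 0.113). Crip2, a LIM domain protein, read 12.26 and 12.35 in KI and 7.78 and 7.72 in WT, a difference of 4.55 ± 1.25 (adjusted p = 0.268). Its polysomal replicates lay close together, while in WT total RNA, which enters the shared spread, it read 7.93 and 12.14. Igfbp4, which binds insulin-like growth factors, read 11.97 and 12.35 against 8.74 and 9.18, a difference of 3.20 ± 0.39 (adjusted p = 0.0738), and its other probe read 2.80. Serpinb2, the plasminogen activator inhibitor PAI-2, differed by 2.84 ± 0.34 (adjusted p = 0.0714). Tbc1d2, a GTPase-activating protein of Rab proteins, differed by 2.95, the caveolar protein gene Cavin3 by 2.62 and the sphingosine kinase gene Sphk1 by 2.48, with adjusted p of 0.218, 0.176 and 0.383.

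On the lower side, Dcn, the small proteoglycan decorin, read 10.96 and 10.62 in KI and 13.89 and 14.05 in WT, a difference of -3.18 ± 1.13 (adjusted p = 0.37). A second Dcn probe read -3.60. Gpnmb, a transmembrane glycoprotein, read 8.85 and 7.88 against 11.28 and 11.04, a difference of -2.80 on its brightest probe and -0.66 on another. The proliferin genes Prl2c3 and Prl2c4, which encode near-identical placental hormones whose probes may not tell them apart, differed by -2.40 and -2.42 (adjusted p of 0.459 and 0.442). In these genes too the KI arrays lay below the WT arrays, which was a condition of their choice.

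A fit of the 4 polysomal arrays alone leaves out the spread of total RNA and has fewer degrees of freedom. There 8 genes passed (0.0906%), 5 higher and 3 lower, and only Hoxb7 and Xlr4a were among the 5 above. Crip2 passed (adjusted p = 0.0116), as did Ccl2, Col4a1, Col4a2, Eif2s3y and the glutathione transferase gene Gsta4 (adjusted p = 0.04 each). Thbd, Gpx7 and Hoxb4 had 0.0664, 0.0744 and 0.0841. Gsta4 read 7.75 on both KI arrays and 9.31 and 9.28 in WT.

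Counted by size, 134 genes (1.52%) differed by more than 1 log2 unit upwards in KI and 70 (0.793%) by more than 1 downwards. Above 2 units there were 16 higher and 17 lower genes, and above 3 units 5 higher and 2 lower. A mean at or below 7.73 in WT together with a value over 1 unit higher in KI was found for 16 genes, and the reverse for 7. The first set held Xlr4a, Eif2s3y, Ndn and, among genes picked here after their values were seen, the imprinted splicing factor gene Snrpn (1.08), the annexin gene Anxa8 (1.42) and the early growth response gene Egr4 (1.74). The second held Hoxb7, Thbd, Hoxb4, Hoxb5 (-1.21) and, likewise picked afterwards, the retinol dehydrogenase gene Adh7 (-1.97), Creld1 (-1.06) and the mucin gene Muc13 (-1.12). Where genes above 1 unit had other probes past the filter, all 84 of these probes had the same sign, and 26 were also beyond 1 unit.

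The study followed 6 genes as targets of eIF4E phosphorylation, namely Nfkbia, Birc2, Vegfc, Mmp3 and the chemokine genes Ccl2 and Ccl7, and each was lower in KI on both arrays. Because the choice was made on these samples, the direction of the 6 is no independent evidence. None passed in the fit of all arrays (limma; 6 of 6 had an unadjusted p below 0.05, against 11.5% of all tested genes), and their median was -2.18 against -0.01 for all genes. Ccl7 and Ccl2 encode chemokines that draw monocytes. Ccl7 read 9.29 and 9.04 in KI and 12.53 and 12.98 in WT, a difference of -3.59 ± 1.18 (adjusted p = 0.322). Ccl2 read 8.97 and 8.92 against 11.63 and 11.47, a difference of -2.60 ± 1.01 (adjusted p = 0.409). Polysomal replicates lay close together for both genes, and both errors carry the spread of WT total RNA. Leaving out either WT total array removes that spread alike. The differences of Ccl2, Ccl7 and Vegfc then stayed at -2.60, -3.59 and -1.52, as they had to, because total RNA arrays take no part in the polysomal contrast.

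Birc2 encodes cIAP1, a ubiquitin ligase that restrains cell death and non-canonical NF-kappaB signalling. It read 9.26 and 11.34 in KI and 12.33 and 13.12 in WT, so its KI replicates lay further apart than those of any other target. Its difference was -2.42 ± 0.77 on the brightest probe and -1.73 and -1.66 on the others. Mmp3, the metalloproteinase stromelysin 1, read 8.31 and 9.0 against 9.88 and 11.32, a difference of -1.94 ± 0.71 with -1.44 and -1.78 on other probes. Vegfc, a growth factor of lymphatic vessels, read 8.15 and 8.10 against 9.51 and 9.79, a difference of -1.52 ± 0.45. Nfkbia, which encodes the inhibitor that holds NF-kappaB in the cytoplasm, read 9.21 and 9.27 against 10.64 and 10.14, a difference of -1.15 ± 0.31. For each of the 6 genes both KI polysomal arrays lay below both WT arrays, as they did for 29% of all tested genes.

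**Figure D3:**
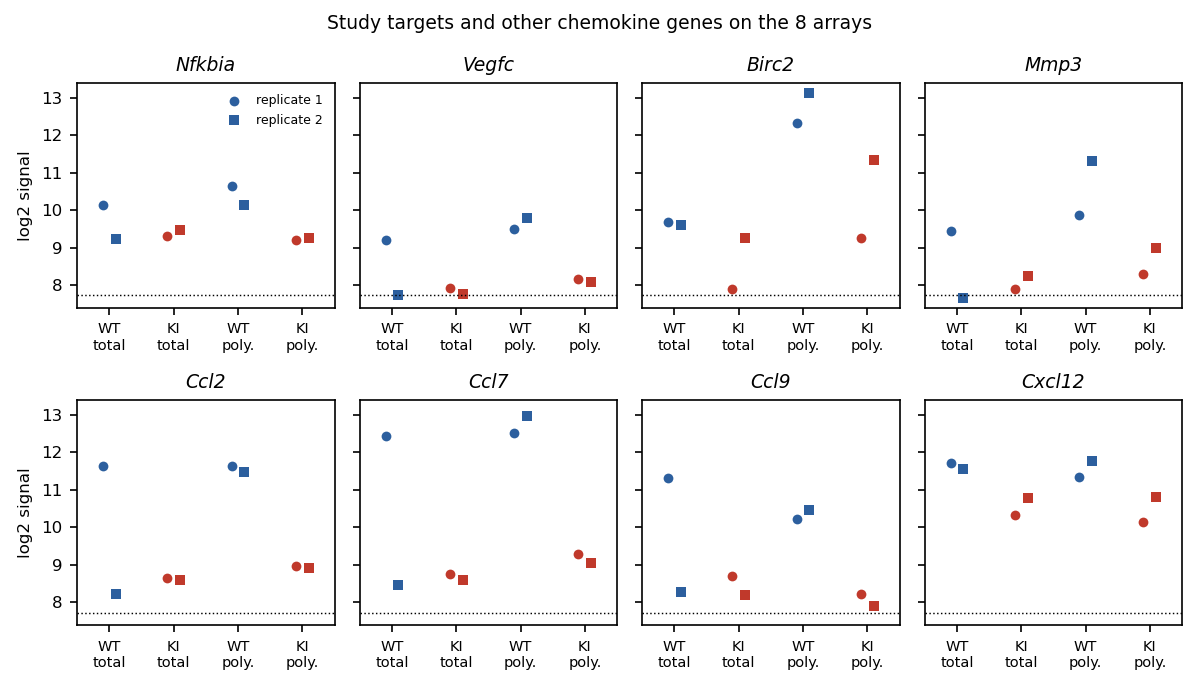
Log2 signal (y axis) on each of the 8 arrays for the 6 study targets and the chemokine genes Ccl9 and Cxcl12, with WT in blue, KI in red, circles for replicate 1 and squares for replicate 2. The dotted line is the median of all probe means. In polysomal RNA (poly.) the KI points lie below the WT points in all 8 panels, while the WT total arrays lie apart for Ccl2 (11.63 and 8.21) and Ccl7 (12.45 and 8.47).

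NF-kappaB is a family of transcription factors released from inhibitor proteins by inflammatory signals, and it induces several of its own inhibitors. Of 27 tested NF-kappaB factors, regulators and feedback genes, 0 passed in limma, and 2 were higher and 8 lower at unadjusted p below 0.05 (6.08% and 5.39% of all genes). The median was -0.12, and -0.54 with a filter at the upper quartile. The kinase gene Map3k14, which encodes NIK, differed by -0.73 ± 0.13, Birc3 by -0.58 ± 0.10, Nfkb2 by -0.86 ± 0.26 and the deubiquitinase gene Tnfaip3 by -0.74 ± 0.21. Among 26 tested genes of secreted chemokines and cytokines 0 passed, and 0 were higher and 7 lower at that p, with a median of -0.12. Ccl9 read 8.22 and 7.91 in KI and 10.22 and 10.46 in WT, a difference of -2.28 ± 0.91. Cxcl12, the ligand of CXCR4, differed by -1.08 ± 0.28, and its other passing probes read -0.56 and -0.62. Kitl, the ligand of the receptor KIT, differed by -1.08 ± 0.24. Both lists hold study targets and are not separate from the 6 genes above.

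The promoter of Nfkbia is shown because Nfkbia is a classic gene of NF-kappaB feedback. It spans 250 bases before to 50 after the start, and capitals mark GGG followed by any 5 bases and CC, the general form of an NF-kappaB site, searched on both strands.
Nfkbia, chr12:55492598-55492897, minus strand, GRCm38.p6: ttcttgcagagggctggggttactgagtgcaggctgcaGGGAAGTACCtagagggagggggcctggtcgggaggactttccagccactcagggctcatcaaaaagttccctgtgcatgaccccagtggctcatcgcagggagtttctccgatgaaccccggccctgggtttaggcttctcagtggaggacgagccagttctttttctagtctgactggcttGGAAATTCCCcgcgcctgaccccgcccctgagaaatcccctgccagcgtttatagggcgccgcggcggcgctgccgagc
Nfkbia held 2 matches, Vegfc 1, and Birc2 and Mmp3 0. The study targets Ccl2 and Ccl7 had no promoter entry and were not searched. At least 1 match was present in 50.8% of all promoters of this length and at least 2 in 27.4%, so a match is only a description of these letters.

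Collagen genes had the highest median of the pathway lists, 0.93 against -0.01 for all genes. Of 15 tested, 0 passed in limma, 8 were higher and 0 lower at unadjusted p below 0.05 (6.08% and 5.39% of all genes), and the KI arrays lay wholly above the WT arrays for 11 and wholly below for 0 (23.6% and 29% of all genes). The median was 0.50 with no filter on dim probes and 1.43 with a filter at the upper quartile. Col4a1 and Col4a2, the paired chains of basement membrane collagen, stood highest. Col4a2 read 12.14 and 12.02 in KI and 10.08 and 10.14 in WT, a difference of 1.97 ± 0.22 (adjusted p = 0.0609). Col4a1 read 12.59 and 12.58 against 10.67 and 10.76, a difference of 1.87 ± 0.28 (adjusted p = 0.113). The fibril-associated Col16a1 read 11.69 and 11.65 against 10.08 and 10.36, a difference of 1.45 ± 0.16 (adjusted p = 0.0609). The fibrillar chains Col1a1, Col1a2 and Col3a1 differed by 1.47, 1.48 and 1.08. Col5a2 at 0.11 and Col2a1 at -0.01, named here after their values were seen, were close to 0.

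Other matrix genes were mixed. Of 43 tested glycoproteins and proteoglycans 0 passed, and the median was 0.33. At unadjusted p below 0.05, 7 were higher and 6 lower (6.08% and 5.39% of all genes). Besides Dcn and Thbs2, Fbln1, which encodes fibulin 1, differed by -1.17 ± 0.23 with -0.43 on another probe, and the basement membrane linker gene Nid1 by -0.90 ± 0.26. Agrn, the heparan sulphate proteoglycan agrin, differed by 1.62 ± 0.38 and Spon2 by 1.40 ± 0.43. Among 35 tested matrix proteases and inhibitors 0 passed, 6 were higher and 1 lower at unadjusted p below 0.05, with a median of 0.21. The 1 lower gene was Mmp3. The higher ones included Serpinf1, Serpinb2, the collagen chaperone gene Serpinh1 (0.63 ± 0.16) and the metalloproteinase inhibitor gene Timp3 (1.04 ± 0.28).

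Genes of the contractile apparatus had a median of 0.29 over 23 tested members, of which 0 passed. At unadjusted p below 0.05, 9 were higher and 0 lower (6.08% and 5.39% of all genes). After Actg2, the tropomyosin gene Tpm2 differed by 0.76 ± 0.15, but its other probes read -0.08 and -0.07. Smtn, the smooth muscle protein smoothelin, differed by 0.88 ± 0.19 with 0.40 and 0.72 on other probes. Vcl, the adhesion protein vinculin, differed by 0.55 ± 0.16. Acta2, the standard marker of myofibroblasts, read 0.31 and was named here after its value was seen.

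Receptors and ligands of growth factor, Wnt and TGF-beta signalling held no gene that passed. In the list of 43 growth factors and receptors 0 passed, with a median of 0.06. At unadjusted p below 0.05, 5 were higher and 4 lower (6.08% and 5.39% of all genes). Next to Flt1, Nppb and Igfbp4, the insulin-like growth factor receptor gene Igf1r differed by 0.70 ± 0.11, and Pdgfra, the PDGF receptor alpha of mesenchymal cells, read 8.75 and 8.98 in KI and 10.06 and 10.41 in WT, a difference of -1.37 ± 0.25. Of 31 Wnt pathway genes 0 passed, 6 were higher and 1 lower at unadjusted p below 0.05, with a median of 0.08. Dkk3, a secreted protein of the Dickkopf family, read 11.06 and 10.85 in KI and 8.96 and 8.97 in WT, a difference of 1.99 ± 0.24 (adjusted p = 0.0747) with 1.78 on its other probe. The Frizzled receptor gene Fzd7 differed by 0.82 ± 0.19. Of 35 genes of the TGF-beta and BMP pathway 0 passed, 4 were higher and 1 lower, with a median of 0.02. The type II receptor gene Tgfbr2 differed by 1.32 ± 0.25, with 0.14 on another probe near the bottom of the range, and Inhba, the activin A subunit, by 1.34 ± 0.29.

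Among 50 guidance and adhesion genes 0 passed, with a median of 0.18. At unadjusted p below 0.05, 10 were higher and 1 lower (6.08% and 5.39% of all genes). Thy1, a surface glycoprotein of fibroblasts, read 12.08 and 11.35 in KI and 10.28 and 9.84 in WT, a difference of 1.65 ± 0.37. Cdh13, a cadherin without a cytoplasmic tail, differed by 1.39 ± 0.31, with 0.46 on another probe. Of 40 tested Hox genes and other positional transcription factors, 0 rose and 2 fell, Hoxb7 and Hoxb4, while 7 were higher and 9 lower at unadjusted p below 0.05. Hoxb5 and Hoxb6 differed by -1.21 and -0.75. Of the genes named after their values were seen, Irx3 (2.15) and Hoxc9 (1.77) were among the higher ones and Hoxc6 (-2.25) and Hoxa7 (-1.48) among the lower, and the list's median was -0.01. Of 13 imprinted genes 0 passed, 6 were higher and 1 lower, with a median of 0.21. The higher ones included Ndn, Snrpn and the cell cycle inhibitor gene Cdkn1c (0.61), all on chromosome 7, and Dlk1 (1.13), and the 1 lower gene was Dcn.

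**Figure D4:**
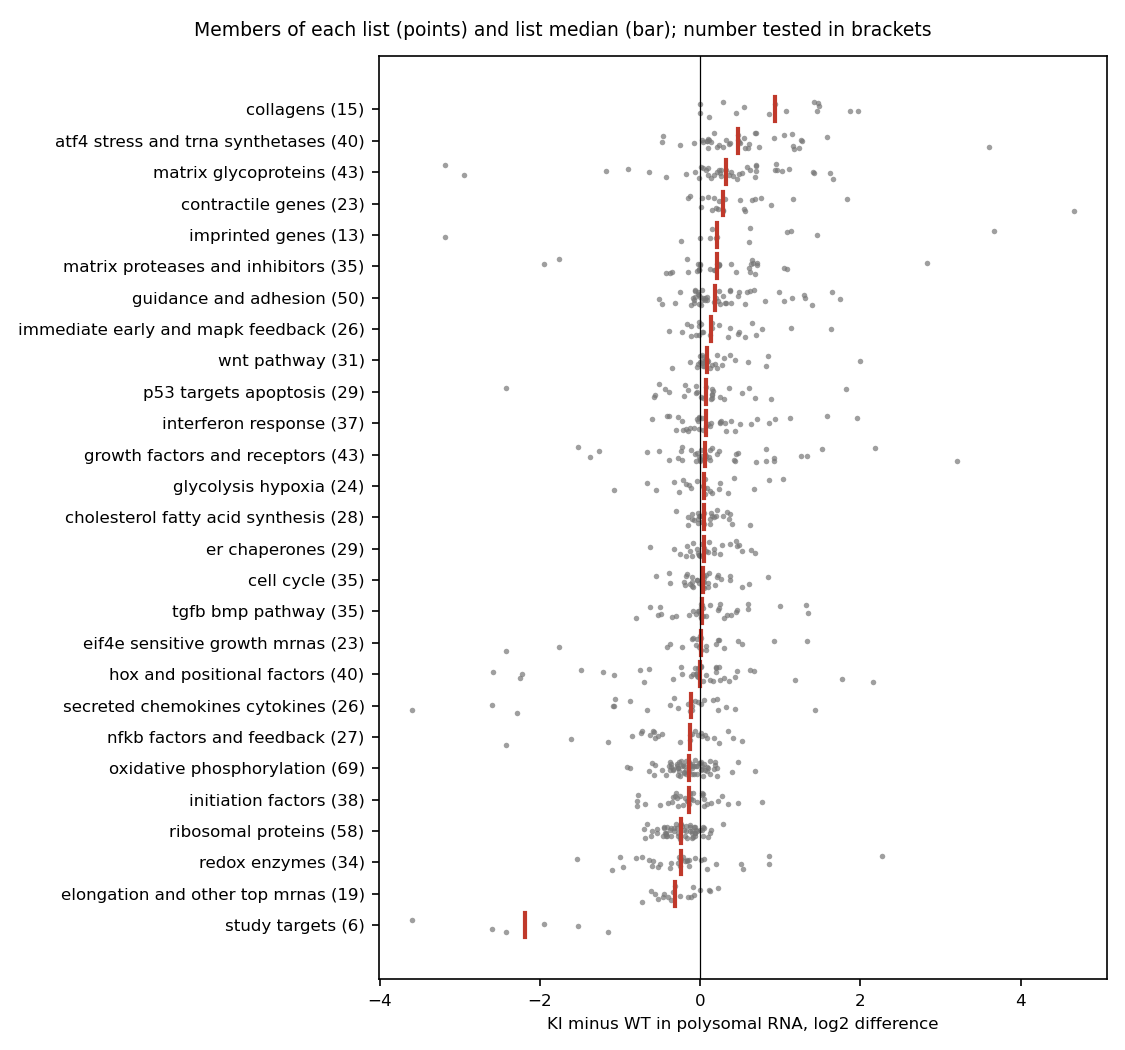
KI minus WT log2 difference in heavy polysomal RNA (x axis) for the tested members of each gene list (grey points), with the list median as a red bar and the number of tested members in brackets. Collagens have a median of 0.93, ribosomal proteins -0.24 and the 6 study targets -2.18, and most lists have a median close to 0.

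The integrated stress response, in which the transcription factor ATF4 induces amino acid transport, amino acid synthesis and tRNA charging, was represented by 40 tested genes. In limma 0 passed, while 14 were higher and 0 lower at unadjusted p below 0.05 (6.08% and 5.39% of all genes). A positive difference was found for 36, as for 46% of all tested genes, and the list's median was 0.47. It was 0.23 without KI polysomal replicate 1 and 0.66 without KI polysomal replicate 2. Beside Slc7a3, the alanyl-tRNA synthetase gene Aars read 13.58 and 13.54 in KI and 12.10 and 12.56 in WT, a difference of 1.23 ± 0.23 (adjusted p = 0.143). Herpud1, of endoplasmic reticulum degradation, differed by 1.17 ± 0.23, the lipoprotein receptor gene Vldlr by 1.15 ± 0.26 and the stress protein gene Nupr1 by 1.16 ± 0.31. The mean signal over the list was 10.72 and 10.29 in KI and 9.80 and 10.10 in WT, so the 2 experiments differed within each line. Endoplasmic reticulum chaperones had a median of 0.04 over 29 genes, with 4 higher and 1 lower at unadjusted p below 0.05 and 0 passing in limma.

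Of 37 interferon-response genes 0 passed in limma. At unadjusted p below 0.05, 2 of them were higher and 0 lower (6.08% and 5.39% of all genes). Their median was 0.08. The list's mean signal was 9.38 and 9.19 in KI against 8.73 and 9.41 in WT. The ubiquitin-like gene Isg15 read 11.81 and 11.84 in KI against 9.30 and 11.18 in WT. Usp18, the gene of its deconjugating protease, read 11.98 and 11.70 against 8.68 and 11.08. For both genes WT polysomal replicate 1 was low and the other 3 arrays lay within 1 log2 unit of each other.

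Translation machinery lay slightly lower in KI polysomal RNA. Of 58 tested ribosomal protein genes 0 passed in limma. At unadjusted p below 0.05, 0 were higher and 9 lower (6.08% and 5.39% of all genes). Of the 58, 50 had a negative difference, where 54% of all tested genes did. Their median was -0.24. Rpl19 read 12.67 and 13.00 in KI and 13.45 and 13.55 in WT, a difference of -0.67 ± 0.22 (adjusted p = 0.323). Fau, whose product is a fusion with ribosomal protein S30, differed by -0.41 ± 0.11, Rpl34 by -0.42 ± 0.12, Rps10 by -0.45 ± 0.15 and Rpl35 by -0.25 ± 0.08. For 37 of the 58 genes both KI arrays lay below both WT arrays, against 29% of all genes. Ribosomal protein genes have many processed pseudogenes, and probes for them may bind transcripts of other copies.

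Vertebrate ribosomal protein mRNAs begin with a C followed by a run of pyrimidines, the 5′ terminal oligopyrimidine (TOP) tract, through which mTOR signalling controls their translation. The starts of the 5 ribosomal protein genes named above are shown for this tract. Each run covers 10 bases before to 20 bases after the RefSeq start on GRCm38.p6, and capitals mark a C at the start with at least 4 pyrimidines after it.
Fau, chr19:6057937-6057966, plus strand: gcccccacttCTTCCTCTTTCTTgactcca
Rps10, chr17:27635225-27635254, minus strand: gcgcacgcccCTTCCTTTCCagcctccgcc
Rpl35, chr2:39005112-39005141, minus strand: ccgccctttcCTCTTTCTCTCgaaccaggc
Rpl34, chr3:130730379-130730408, minus strand: tccctgacgtacttcctgtccggcgccgtc
Rpl19, chr11:98026700-98026729, plus strand: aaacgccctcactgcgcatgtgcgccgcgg
Fau, Rps10 and Rpl35 have the tract at the annotated start, and Rpl34 and Rpl19 do not. Of 50 tested ribosomal protein genes with a promoter in the table, 11 (22%) had the tract exactly at the annotated start, against 2.92% of all tested genes with one. RefSeq starts are often some bases off, so this count misses tracts nearby. The 11 genes had a median difference of -0.26 and the 39 without the tract at that base -0.21.

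Elongation factors and other mRNAs of the TOP class had a median of -0.31 over 19 tested genes, 16 of which had a negative difference, with 0 passing in limma and 0 higher and 3 lower at unadjusted p below 0.05. The histone chaperone gene Nap1l1 differed by -0.72 ± 0.22 and the hnRNP gene Hnrnpa1 by -0.61 ± 0.26. At that p, 6.08% of all genes were higher and 5.39% lower. Both KI arrays lay below both WT arrays for 15 of the 19, against 29% of all genes. Of 38 tested initiation factor and MNK genes 0 passed, 2 were higher and 4 lower at unadjusted p below 0.05, and 26 had a negative difference, with a median of -0.14. Eif4a3, the helicase of the exon junction complex, differed by -0.50 ± 0.16, and Eif5a by -0.40 ± 0.13. Mknk1, the gene of the eIF4E kinase MNK1, differed by 0.35 ± 0.11.

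The list of 23 mRNAs long held to depend on eIF4E, among them those of cyclins, Myc and survival factors, had a median of 0.01. In limma 0 passed, and 1 was higher and 1 lower at unadjusted p below 0.05 (6.08% and 5.39% of all genes). The higher gene was Ccnd2, a D-type cyclin, which read 12.18 and 12.38 in KI and 10.79 and 11.10 in WT, a difference of 1.33 ± 0.37. The lower one was Birc2. Myc read 8.19 and 8.09 against 8.51 and 8.22, a difference of -0.22. Mmp9, the gelatinase B gene, read 8.23 and 7.87 against 10.21 and 9.42, a difference of -1.77 ± 0.73 (adjusted p = 0.442).

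Oxidative phosphorylation was represented by 69 genes with a median of -0.14, with 49 negative, as 54% of all tested genes were. In limma 0 passed, and 2 were higher and 4 lower at unadjusted p below 0.05 (6.08% and 5.39% of all genes). Of 34 redox enzyme genes 1 rose, Gpx7, and 2 were higher and 4 lower at unadjusted p below 0.05, with a median of -0.24. Besides Gsta4 (-1.54 ± 0.37), the lower ones included Gpx4 (-0.63 ± 0.15), which reduces lipid peroxides, and the thioredoxin reductase gene Txnrd1 (-0.58 ± 0.13). Cell cycle genes (35 tested) had a median of 0.04, cholesterol and fatty acid synthesis genes (28) 0.04, glycolysis and hypoxia genes (24) 0.05, p53 and apoptosis genes (29) 0.08 and immediate early genes (26) 0.14. In each of these 5 lists 0 genes passed in limma. Between 1 and 6 genes of each had an unadjusted p below 0.05, as 11.5% of all genes had.

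The labelled cell type was checked against markers. Of 12 fibroblast markers on the array 10 passed the filter. The summed log2 signal of the 12 was 124.8 and 126.9 in KI and 123.5 and 124.5 in WT polysomal RNA. These sums hide opposite differences: 7 of the 10 were positive and 3 negative, from -3.18 for Dcn to 1.65 for Thy1. Of 11 endothelial, 10 epithelial, 9 blood and macrophage, 11 neural and 11 skeletal muscle markers, 4, 4, 1, 6 and 4 passed. Of 15 adipocyte, cartilage and bone markers 6 passed, with a sum of 116.2 and 115.8 in KI and 116.5 on both WT arrays. Each sum includes the markers that did not pass, which lie at the bottom of the range. The endothelial sum was 86.7 and 86.8 in KI and 87.7 and 87.9 in WT, and the defining markers Pecam1 and Cdh5 read between 7.63 and 7.71, among the lowest signals. Thbd and Flt1, described above, are members of that endothelial list. The epithelial sum lay between 77.0 and 77.6 on the 4 arrays. The neural sum was 89.0 and 90.2 in KI and 87.3 and 87.9 in WT, and the muscle sum 85.8 and 87.1 against 84.9 and 84.5. The part of other cell types in the differences was not tested. In bulk RNA, fewer cells of a type and less RNA per cell cannot be told apart. Of 3 Y-linked genes past the filter, Eif2s3y and Kdm5d lay at the bottom in WT and above it in KI polysomal RNA. There Kdm5d read 7.98 and 7.99 in KI against 7.66 and 7.63 in WT (limma, adjusted p = 0.185). In total RNA Kdm5d lay at the bottom in both lines, at 7.68 on both KI arrays and 7.60 and 7.62 in WT. The third, Uty, read 7.88 and 8.02 in KI against 7.78 and 7.79 in WT polysomal RNA (adjusted p = 0.679), and its KI and WT arrays overlapped in total RNA. Xist lay between 7.68 and 7.74 on the 4 polysomal arrays, at the bottom in both lines.

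Whether a polysomal difference departed from that in total RNA was asked with the interaction of the same fit. That fit was unpaired: it ignored that polysomal and total arrays of the same line and replicate number may share a culture. Deviations of such arrays from their group means correlated across genes at 0.58 in KI and 0.05 in WT. In limma 0 genes passed (0%), and 199 (2.25%) had an unadjusted p below 0.05. When the culture was fitted as a random block, the count was also 0, and 289 genes fell below 0.05 before adjustment (limma). The interaction p-values of single genes given below come from the unpaired fit. Of all 8832 tested genes, 6420 had a difference of the same sign in polysomal and total RNA, which came from the same lines. Among genes beyond 1 unit in polysomal RNA, this held for 130 of the 134 higher and 69 of the 70 lower. These genes were chosen on their polysomal value, so their smaller total RNA values (medians of 0.84 and -0.91, against 1.31 and -1.31) are no measure of a gain on polysomes. Frk read -0.86 in polysomal and -0.04 in total RNA (difference -0.82, unadjusted p = 0.000557, adjusted p = 1). Xlr4a read 2.23 and 0.99 (unadjusted p = 0.000855, adjusted p = 1). Serpinb2 read 2.84 and 1.01 (unadjusted p = 0.00899, adjusted p = 1), and Palld 1.32 and 0.54 (unadjusted p = 0.00642). Nfkbia read -1.15 and -0.29 (unadjusted p = 0.0982), Ccl7 -3.59 and -1.78 (0.32) and Col4a2 1.97 and 1.22 (0.0552). Frk read 7.62 and 7.70 in KI and 7.71 and 7.70 in WT total RNA, all below 7.73. Its -0.04 is therefore no evidence that total RNA was equal. Also below 7.73 in WT total RNA were Serpinb2 (7.68 and 7.66) and Xlr4a (7.61 and 7.58), and Xlr4a in WT polysomal RNA (7.62 and 7.64). Differences against those values are understated. The interaction of Frk, Serpinb2 and Xlr4a therefore cannot tell a polysomal departure from this limit of the signal.

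**Figure D5:**
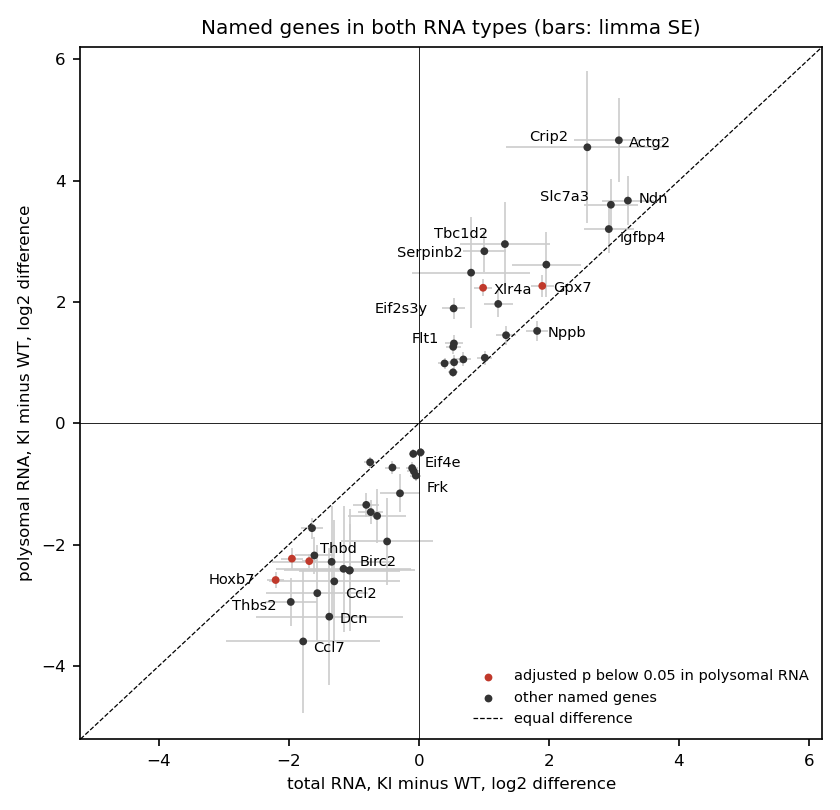
KI minus WT log2 difference in total RNA (x axis) against that in heavy polysomal RNA (y axis) for the passing genes, the genes with the smallest p or largest difference, Eif4e and the study targets, with limma standard errors as bars. Red points passed in polysomal RNA and the dashed line marks equal differences. Some of the longest bars, such as those of Crip2, Ccl7 and Dcn, belong to genes in which the WT total arrays differed from each other. For Birc2 (standard error 0.77) the WT total arrays read 9.68 and 9.60, while its KI polysomal arrays read 9.26 and 11.34.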

How the data were processed

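Log2 signal was taken from the series' value table as the authors deposited it. The submitters' processing notes name lumi, without a version or role. Whether and how the signal was background-corrected and normalized, and its log base, is not given in the sources used here. A second deposited table, labelled non-normalized, held the same values (within 1e-06) in 8 columns that no label names, and these 8 columns were not used. Whether the values used here were normalized between arrays therefore cannot be told. Of the named probes, 23962 matched a RefSeq gene ID (GRCm38.p6), which gave symbols and chromosomes.

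A model with 1 mean per group was fitted to the 8 arrays, without a block, with limma 3.58.1 and R 4.3.3 (lmFit, eBayes; 4 residual and 1.8 prior degrees of freedom). P-values were two-sided and adjusted by the Benjamini-Hochberg method over all tested genes. The filter, the brightest probe per gene and the threshold of 0.05 are given in the report. The fit was also run on simulated data for 8832 genes with 50 genes changed at each of 4 sizes. It called 30, 37, 48 and 50 of those changed by 1, 2, 3 and 4 log2 units, with 8 false calls. The simulated noise was normal and independent between arrays, without a bottom of the signal range. These counts are therefore no measure of how many real differences the arrays could detect.

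Named genes were all that passed, the 15 higher and 15 lower with the smallest p and the 10 with the largest difference each way (arrays not overlapping, identifiers left out), up to 5 per gene list by smallest p, Eif4e and the study targets. Other names are marked as chosen after their values were seen. Members and lists were chosen with earlier results of these data known. KI and WT arrays share replicate numbers, and their deviations from the group means correlated across genes at 0.24 in polysomal RNA. The labels do not say that a number marks a shared day, and there are 2 pairs, so the block is an alternative. The precision is limited by the number of arrays.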

Additional observations from a re-analysis of the deposited data

Results flagged for a closer look

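Probes without a gene symbol took no part in the comparison. When all 12848 probes past the filter were fitted, 4 of the 754 unnamed ones passed in polysomal RNA, 3 higher and 1 lower in KI. ILMN_2899599 differed by 3.23, ILMN_2737101 by 1.51, ILMN_3027751 by 1.12 and ILMN_2599125 by -1.68. They are marked because they show a difference against WT in data that the named genes leave out.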

How the results depend on the processing

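The count of genes passing in polysomal RNA, 5 in the main setting, ranged from 0 to 56 when 1 array at a time was left out. Without WT polysomal replicate 1 it was 2, and without either WT total array 56. Where it was 0 (limma), between 623 and 828 genes had an unadjusted p below 0.05. The lone array was then assumed to vary like the other groups. The count was 8 with the 4 polysomal arrays alone, 15 with the culture as a random block, 9 with no filter on dim probes, 28 with a filter at the upper quartile and 63 with an intensity trend in eBayes. It was 5 to 7 with the other settings: a filter on the polysomal mean, the mean of a gene's probes, every probe, quantile normalization and robust eBayes. With the replicate number as a block 13 genes passed, 7 higher and 6 lower, all 5 main calls among them. KI and WT share only that number. Deviations of same-numbered KI and WT arrays correlated at 0.24 in polysomal and 0.39 in total RNA, over 2 pairs each. The count for the difference between polysomal and total RNA was 0 in each fit that tested it, except without WT total replicate 1, where it was 7, so its range over arrays left out was 0 to 7. Beside that 0, 199 genes had an unadjusted p below 0.05 in the main setting. Over the 104 named genes, 1955 values under other settings were computed. Of these, 1789 kept their direction and their side of the threshold, 28 lost the call, 138 gained it and 0 changed sign. Many of these genes were chosen for arrays that did not overlap, so leaving out 1 polysomal array could not change their sign. Settings that changed only the block, the estimate of spread or the total arrays left each polysomal difference as it was. The count of 0 is therefore no evidence of stability. Medians near 0, namely those of the cell cycle, cholesterol, eIF4E-dependent, chaperone, glycolysis, Hox, immediate early, interferon and p53 lists, changed sign in some settings. Other medians kept their sign but some moved by over 1.5 times, most with the filter. From no filter to a filter at the upper quartile they went from 0.50 to 1.43 for collagens (1.36 without KI polysomal replicate 1), 0.11 to 0.49 for matrix glycoproteins (0.18 without KI polysomal replicate 2), 0.04 to 0.61 for proteases, 0.02 to 0.48 for guidance, 0.22 to 0.52 for contractile genes, 0.03 to 0.37 for Wnt, 0.01 to 0.23 for growth factors and -0.03 to -0.35 for chemokines. With 1 array left out, those of ATF4 genes ranged from 0.23 to 0.66, imprinted genes 0.21 to 0.45 (0.01 with no filter), NF-kappaB -0.22 to -0.12, TGF-beta 0.02 to 0.06 and oxidative phosphorylation -0.21 to -0.10.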
